A study of Mus musculus with 6 samples.

Results

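Myelin is the wrapped membrane that Schwann cells, the glia of peripheral nerves, lay around axons, and nerve bundles run through the mammary fat pad. The 7 genes described here, Mbp, Pmp22, Prx, Mag, Cldn19, Egr2 and S100b, were chosen by symbol as peripheral myelin and Schwann cell genes, and all 7 were found among the 34590 symbols of the count table. Compact myelin is held together by proteins such as those of Mbp and Pmp22. The channels of uncompacted membrane, the contact with the axon and the seals between membrane turns use others, among them those of Prx, Mag and Cldn19. Egr2 (Krox20) is the transcription factor that drives the myelinating state, and S100b encodes a calcium-binding protein used as a general Schwann cell marker.

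RNA was sequenced from 3 pairs of contralateral inguinal glands (gland number 4), 1 pair from each of 3 host mice, called mouse 1, 2 and 3. In each host the left gland carried WT.EGFP+ epithelium and the right gland carried Adamts18-/-.EGFP+ epithelium, so that genotype and body side cannot be told apart. The Adamts18-/- allele lacks the exons for the catalytic site of this secreted protease, and epithelia of both genotypes constitutively expressed EGFP from a chicken beta-actin promoter. Grafting used WT female hosts aged 3 weeks, whose fat pads had first been cleared. The interval between grafting and harvest of these glands was not given in the sources used here. Only the grafted epithelium differed by genotype, and the stroma, with its nerves, was that of the WT host.

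The sample labels name the material as GFP+ mammary epithelial cells collected on a cell sorter, whereas the study's text speaks of glands. Markers of other cell types were present in all 6 libraries. The summed level of 10 adipocyte genes lay between 8541 and 20656 CPM (counts scaled to the size of each library, after edgeR's TMM normalization) and that of 8 fibroblast genes between 8966 and 12310 CPM, beside 1695 to 2962 CPM for 24 pan-epithelial genes. The most abundant genes of these lists were Cfd (3450 to 7187 CPM), Col3a1 (2824 to 5198 CPM) and Krt19 (275 to 482 CPM). Schwann cell genes were among those present, with Prx between 24.8 and 76.3 CPM. Of 6 listed genes of oligodendrocytes, the myelinating glia of the central nervous system, 4 were near 0, with 0 to 3 reads for Mog and Ermn, 1 to 3 for Mobp and 0 to 1 for Opalin. The other two, Mag and Cnp (58.2 to 97.1 CPM), are also genes of Schwann cells. Some transcripts of neurons were also scarce, with 3 to 10 reads for Nefl and 2 to 9 for Snap25. Of 10 listed neuronal genes, however, 7 were abundant enough to be tested. These summed to 10.3 to 16.2 CPM over the libraries, led by Uchl1 (5.02 to 5.64 CPM). The libraries held 54059023 to 71595924 counts in the WT group and 53875123 to 63307129 in the Adamts18-/- group. A count of 0 allows up to 3 counts, which was 0.0419 to 0.0557 CPM depending on the library and covers counting error only. The libraries of mouse 3, above all that of its Adamts18-/- gland, stood apart on the first principal component (41.6 and 87.2, against -42.0 to -20.9 in the other glands), and results are given with and without this mouse where it matters. Adamts18 itself was lower in the Adamts18-/- gland of each mouse (log2 fold change -0.83, SE 0.19, unadjusted p = 0.00922 and adjusted p = 0.987, edgeR's quasi-likelihood test). However, the count also covers the exons that the allele keeps. The study also reports Adamts18 expression by the stroma of WT fat pads that carry Adamts18-/- epithelium. The part of either in the remaining count was not tested.

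In the GENCODE M21 annotation of GRCm38, Cldn19 spans chr4:119255414-119262438, Prx chr7:27499324-27520214 and Mag chr7:30899176-30914873 (minus strand). Egr2 spans chr10:67535475-67542188, S100b chr10:76253853-76261159 and Pmp22 chr11:63128982-63159547. Antisense genes share 300 exon bases with Prx and 90 with Cldn19, and they held 25 to 52 and 0 to 2 reads. The strand setting of the counting was not given in the sources used here, so that reads of a gene and its antisense partner cannot be told apart.

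Of the 7 members, 6 matched an entry of the RefSeq promoter table (GRCm38.p6), which gives the bases upstream of annotated starts. The 250 bases before the most upstream start were searched on both strands for GTGGGCG, the core of the motif that Egr2 and its relatives bind, and for ACAAAG, a core of the SOX family, to which the Schwann cell regulator Sox10 belongs. These letter patterns do not overlap each other here. The EGR core stood in 2 of the 6 windows, those of Cldn19 and Egr2, against 7.04% of 27025 promoters, and the SOX core in 1, that of Mag, against 16.5%. A match is a description of letters and not a binding site. The 3 windows with a match are shown with that of Prx, which had none, because the levels of Prx and Cldn19 ran nearly in parallel across the glands. Capitals mark the matched letters on either strand.
Cldn19, chr4:119255191-119255440, plus strand: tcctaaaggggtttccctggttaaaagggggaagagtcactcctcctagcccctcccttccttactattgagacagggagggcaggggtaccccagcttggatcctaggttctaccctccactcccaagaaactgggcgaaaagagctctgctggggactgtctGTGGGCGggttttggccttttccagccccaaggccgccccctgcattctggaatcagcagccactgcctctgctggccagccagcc
Egr2, chr10:67535249-67535498, plus strand: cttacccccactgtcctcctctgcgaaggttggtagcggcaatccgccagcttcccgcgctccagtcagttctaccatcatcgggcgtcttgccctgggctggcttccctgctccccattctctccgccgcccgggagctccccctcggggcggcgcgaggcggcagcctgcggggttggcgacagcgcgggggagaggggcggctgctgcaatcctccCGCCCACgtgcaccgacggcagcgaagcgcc
Mag, chr7:30914923-30915172, minus strand: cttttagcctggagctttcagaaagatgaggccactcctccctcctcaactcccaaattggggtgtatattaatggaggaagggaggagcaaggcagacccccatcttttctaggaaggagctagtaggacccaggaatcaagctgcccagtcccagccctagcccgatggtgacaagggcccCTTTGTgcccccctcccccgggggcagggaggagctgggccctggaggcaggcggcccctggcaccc
Prx, chr7:27499074-27499323, plus strand: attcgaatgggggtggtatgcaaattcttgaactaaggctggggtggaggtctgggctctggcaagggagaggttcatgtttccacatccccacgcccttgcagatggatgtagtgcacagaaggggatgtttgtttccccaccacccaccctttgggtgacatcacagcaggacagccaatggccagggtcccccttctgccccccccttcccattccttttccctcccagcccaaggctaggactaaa

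To compare levels between genes, CPM were divided by the kilobases of merged exons in GENCODE M21. Pmp22 was the most abundant member, at 156 CPM per kilobase as the mean of 6 libraries (88.1 to 199), followed by Mbp at 23.6 (15.5 to 31.7), Egr2 at 9.68 (5.44 to 16.1), Prx at 9.28 (4.45 to 13.7), S100b at 4.40 (2.28 to 6.23), Cldn19 at 2.53 (1.05 to 3.70) and Mag at 1.16 CPM per kilobase (0.985 to 1.47). Only the first step, from Pmp22 to Mbp, left ranges that did not overlap. That step depends on the length used, which pools the exons of all annotated transcripts (2354 bases for Pmp22 and 8469 for Mbp). Before the division the ranges of Pmp22 (207 to 469 CPM) and Mbp (131 to 269 CPM) overlapped. These ranges pool the 6 libraries and do not compare genes within a library. Pmp22 is not restricted to Schwann cells and is also expressed in fibroblasts and epithelia, and the Mbp gene contains the larger golli unit, which is transcribed in immune cells. In bulk libraries a lower level can come from fewer cells of a type or from less RNA per cell, and these cannot be told apart.

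The question was whether these genes differed between glands carrying WT and Adamts18-/- epithelium. Egr2 alone did so at the thresholds of the study (an unadjusted p under 0.05 together with a fold change below 0.8 or above 1.25, hereafter called). The other 6 members varied up to 3.53-fold between glands, but in different directions in different mice. Counts were tested with edgeR's quasi-likelihood test over 17345 genes with the mouse as a block, and all 7 members passed the filter on low counts. Over all genes 1.17% were called higher and 1.84% called lower in Adamts18-/- glands, so 1 of 7 members called higher and 0 called lower (1 had an unadjusted p under 0.05, and limma-voom and DESeq2 also called 0 lower) stand beside these shares. By adjusted p under 0.05 the test passed 0% of all genes and 0 members, and DESeq2 and limma-voom passed 0 members too (DESeq2 passed 71 of all genes), while 3.86% of all genes had an unadjusted p under 0.05. The median log2 fold change was -0.10 for the 7 members and 0.00065 over all tested genes.

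**Figure D1:**
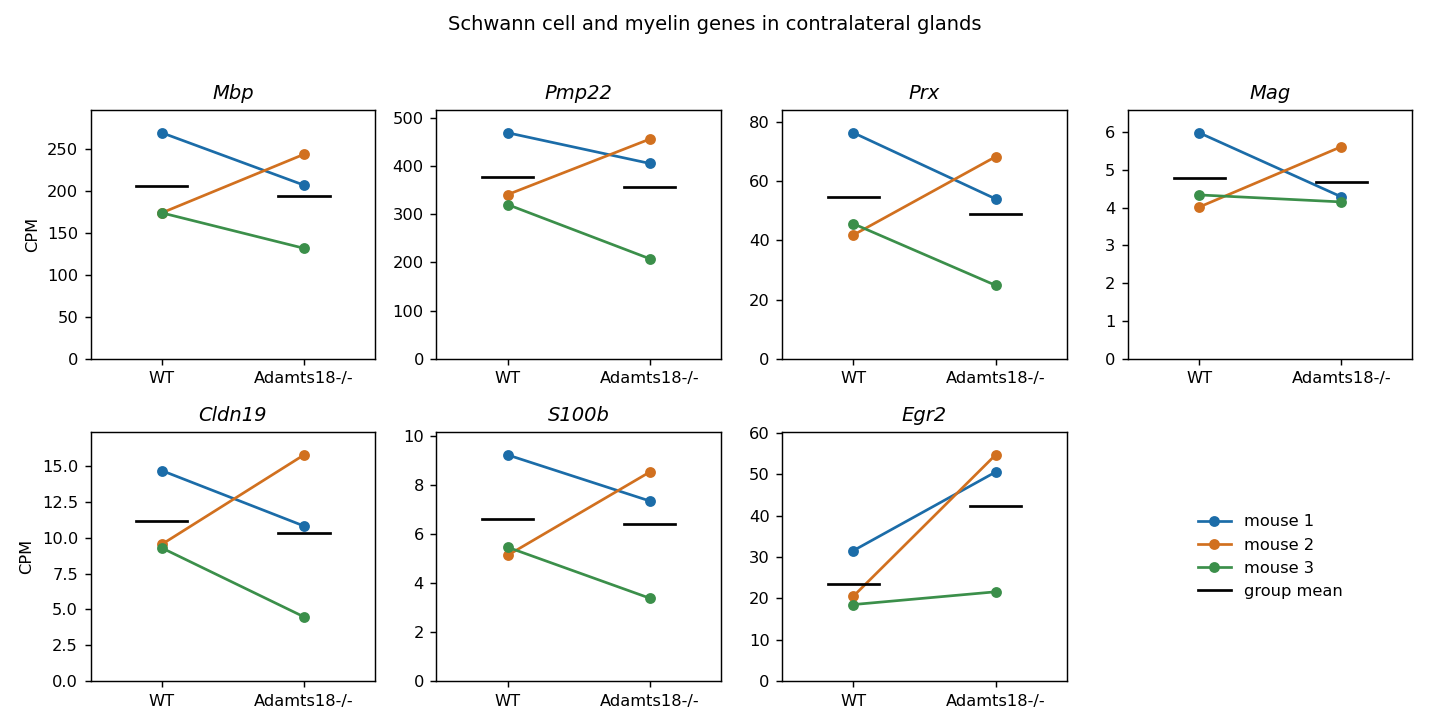
Level of each member (CPM, vertical axis from 0) in the WT and Adamts18-/- gland of each mouse, with points for libraries, colored lines joining the glands of 1 mouse and black bars for group means (n = 3). For 6 genes the line falls in mouse 1, rises in mouse 2 and falls in mouse 3, whereas for Egr2 it rises in all 3 mice, from 20.5 to 54.7 CPM in mouse 2.

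Neither compact myelin member was called. Mbp, whose protein joins the cytoplasmic faces of myelin, spans chr18:82475146-82585637 in GRCm38. It was at 268.8, 173.6 and 173.6 CPM in the WT glands of the 3 mice in turn and at 206.5, 243.2 and 131.4 CPM in their Adamts18-/- glands. The groups overlapped, the highest value was that of the WT gland of mouse 1 and the lowest that of the Adamts18-/- gland of mouse 3. The log2 fold change of Mbp was -0.10 (SE 0.21, unadjusted p = 0.649 and adjusted p = 0.987, edgeR), with a 95% interval from -0.64 to 0.44. Pmp22, a small membrane protein whose dosage is altered in inherited neuropathies, was at 468.9, 340.6 and 320.0 CPM in WT glands and at 405.3, 455.8 and 207.5 CPM in Adamts18-/- glands. The 6 glands stood in the same order as for Mbp. The log2 fold change of Pmp22 was -0.14 (SE 0.22, unadjusted p = 0.553, edgeR), with an interval from -0.71 to 0.43.

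Among the members of uncompacted membrane and junctions, Prx encodes periaxin, which links the Schwann cell surface to its cytoskeleton and is also made in endothelium. It was at 76.3, 41.8 and 45.6 CPM in the WT glands of the 3 mice in turn and at 54.0, 68.2 and 24.8 CPM in Adamts18-/- glands. Cldn19, a claudin of the Schwann cell's own tight junctions, was at 14.7, 9.54 and 9.29 CPM in WT glands and at 10.8, 15.8 and 4.47 CPM in Adamts18-/- glands. Both genes were thus lowest in the Adamts18-/- gland of mouse 3 and high in the WT gland of mouse 1 and the Adamts18-/- gland of mouse 2, and the groups overlapped. Cldn19 had the widest range of the members, 3.53-fold from lowest to highest. The log2 fold changes were -0.23 for Prx (SE 0.33, interval -1.08 to 0.63, unadjusted p = 0.516, edgeR) and -0.25 for Cldn19 (SE 0.36, interval -1.21 to 0.70, unadjusted p = 0.518). As fold changes these intervals run from 0.473 to 1.54 for Prx and from 0.433 to 1.62 for Cldn19. With 3 pairs, a change of any size within them, in either direction, was thus not excluded.

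Mag, the myelin-associated glycoprotein of the membrane next to the axon, was the scarcest member and varied least. It was at 5.98, 4.01 and 4.33 CPM (417, 246 and 244 reads) in WT glands and at 4.28, 5.61 and 4.15 CPM (224, 340 and 255 reads) in Adamts18-/- glands. The lowest value was not that of the Adamts18-/- gland of mouse 3, as it was for the other 5 of these members. Its log2 fold change was -0.021 (SE 0.23, interval -0.62 to 0.58, unadjusted p = 0.932, edgeR). S100b, which adipocytes also express, was at 9.25, 5.14 and 5.47 CPM in WT glands and at 7.36, 8.55 and 3.38 CPM in Adamts18-/- glands, with a log2 fold change of -0.096 (SE 0.31, interval -0.91 to 0.72, unadjusted p = 0.769, edgeR). Its pattern over the glands was that of Prx and Mbp.

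All 6 of these members were lower in the Adamts18-/- gland in mouse 1, higher in mouse 2 and lower in mouse 3, a sequence of signs shown by 15.4% of all tested genes. The difference was largest for Cldn19 in mouse 3, with a log2 difference of -1.05, against 0.72 in mouse 2. In 5 of the 6 the lowest library was the Adamts18-/- gland of mouse 3, as for 32% of all genes. Across the 6 libraries, log2 CPM of the 15 pairs among these members gave Pearson's r from 0.702 (Pmp22 and Mag) to 0.991 (Prx and S100b), while Egr2 gave 0.522 to 0.710 with them. These values describe 6 points that share hosts and scaling. The summed level of the 6 members was 844, 575 and 558 CPM in WT glands and 688, 797 and 376 CPM in Adamts18-/- glands. Markers of other cells moved with it in part. The signs of the 6 members were also shown by 8 of 10 adipocyte, 4 of 10 endothelial and 0 of 10 skeletal muscle genes. Adipocyte genes summed to 20138, 19985 and 10932 CPM in WT glands and to 17625, 20656 and 8541 CPM in Adamts18-/- glands, and 10 endothelial genes (the most abundant of them Pecam1, 155 to 239 CPM) to 1177, 1245 and 901 CPM and 1012, 1252 and 758 CPM. Skeletal muscle genes, led by Myh4 (94.7 to 4972 CPM), summed to 339, 937 and 2976 CPM and 11534, 11483 and 2003 CPM, and so were lowest in the WT gland of mouse 1, where the members were high. The part of these cell types in the result was not tested.

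Leaving out a mouse changed these values, and mouse 2 was the mouse in which all 6 were higher. Without mouse 2, 3 members were called lower, Mbp (log2 fold change -0.39, unadjusted p = 0.0183), Prx (-0.69, unadjusted p = 0.00965) and Cldn19 (-0.74, unadjusted p = 0.0337), where 1.22% of all genes were, with an adjusted p of 0.895 for each (edgeR). Without mouse 3, by contrast, all 6 had positive values between 0.0087 (Mag) and 0.21 (S100b) and 0 were called.

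Because the members varied together, the others were also set against Prx in the same library, a ratio chosen after the values were seen. Cldn19 stood at 0.193, 0.228 and 0.204 of the Prx level in WT glands and at 0.200, 0.231 and 0.180 in Adamts18-/- glands. Its ratio thus varied 1.28-fold over the 6 glands, where Cldn19 itself varied 3.53-fold, and the groups overlapped. S100b varied 1.14-fold against Prx and 2.73-fold alone, and its ratios of 0.121, 0.123 and 0.120 in WT glands lay just below those of 0.136, 0.125 and 0.136 in Adamts18-/- glands, without overlap. Pmp22 ran from 6.14 to 8.36 times the Prx level, with the highest ratio in the Adamts18-/- gland of mouse 3. This gland also held the highest ratios of Mbp, 5.30 against 3.52 to 4.15 in the other 5 libraries, and of Mag, 0.167 against 0.0783 to 0.0960. In the same gland the 7 B cell genes summed to 723 CPM, against 10.9 to 151 CPM elsewhere, led by Cd79a (3.17 to 154 CPM), and 10 T cell genes, led by Lck (7.50 to 124 CPM), to 634 CPM, against 39.4 to 229 CPM. Cd22, a B cell surface gene of the same protein family as Mag, lies 18834 bases from Mag on chromosome 7 and was at 144.9 CPM in this gland and between 2.13 and 27.0 CPM in the others. The part of lymphocytes in these ratios was not tested.

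**Figure D2:**
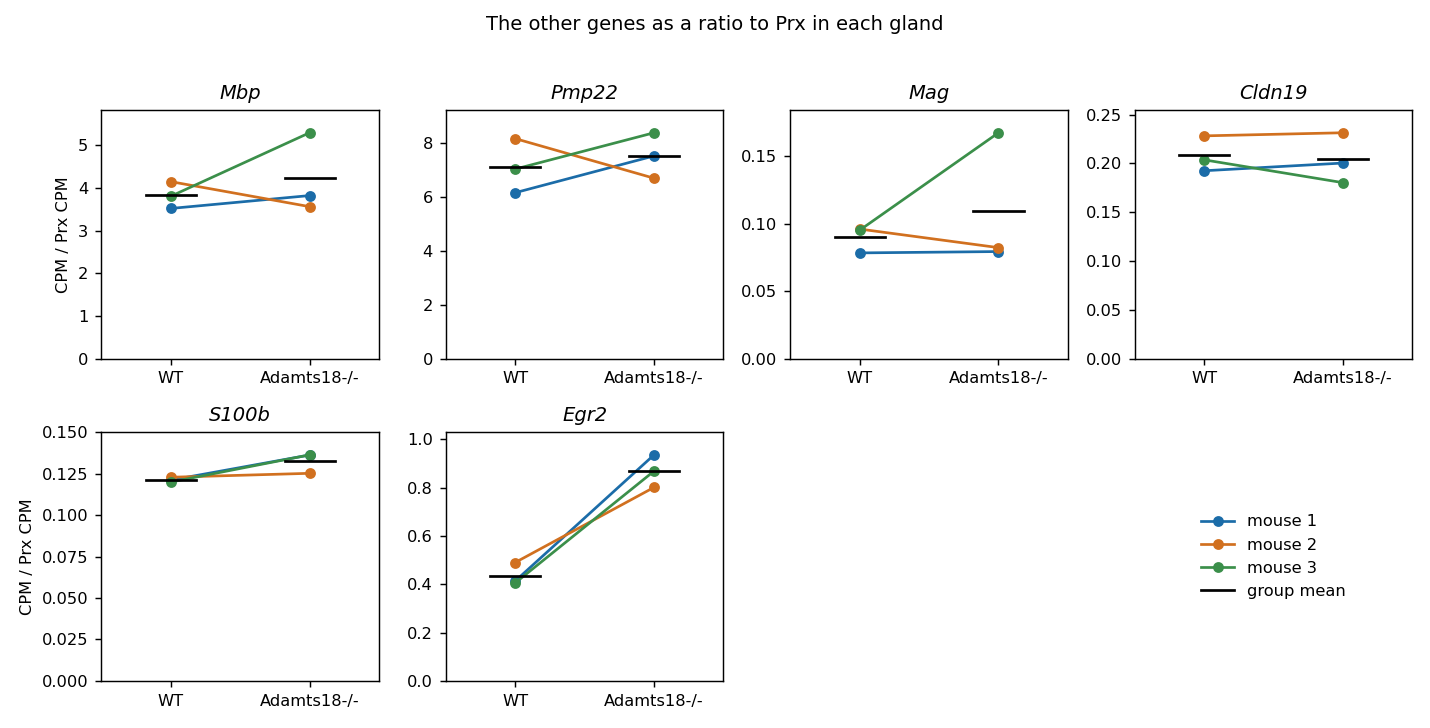
Ratio of each other member's CPM to the CPM of Prx in the same library (vertical axis from 0), by genotype and mouse, with black bars for group means (n = 3). Cldn19 and S100b stay within narrow ranges (0.180 to 0.231 and 0.120 to 0.136), Mbp and Mag are highest in the Adamts18-/- gland of mouse 3 (5.30 and 0.167), and the Egr2 ratios of the Adamts18-/- glands (0.801 to 0.936) all lie above those of the WT glands (0.405 to 0.490).

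Egr2 was the member called between genotypes. It was at 31.5, 20.5 and 18.5 CPM (2199, 1256 and 1040 reads) in the WT glands of the 3 mice in turn and at 50.5, 54.7 and 21.6 CPM (2643, 3314 and 1325 reads) in Adamts18-/- glands. Egr2 was higher in the Adamts18-/- gland of each mouse, as were 10.8% of all genes in all 3, but the low level of mouse 3 made the groups overlap. With 3 glands in each group, the mean and SD were 23.5 ± 7.03 CPM for WT and 42.3 ± 18.0 CPM for Adamts18-/-. The log2 fold change was 0.77 (SE 0.24, interval 0.14 to 1.41, a fold change of 1.71), with an unadjusted p of 0.0258 and an adjusted p of 0.987 over all genes (edgeR's quasi-likelihood test). In mice 1, 2 and 3 the log2 difference was 0.68, 1.41 and 0.22. Over the alternatives the adjusted p of Egr2 lay between 0.00424 and 1 (edgeR), the lowest with scaling to pan-epithelial genes, which raised the median of all genes by 0.43. Egr2 was no longer called without mouse 1 (unadjusted p = 0.0635), without mouse 2 (log2 fold change 0.45, unadjusted p = 0.0524) or without the mouse as a block (unadjusted p = 0.0777, edgeR). Without mouse 3 the log2 fold change was 1.05 (unadjusted p = 0.00189 and adjusted p = 0.0972, edgeR).

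Against Prx, Egr2 stood at 0.413, 0.490 and 0.405 in the WT glands and at 0.936, 0.801 and 0.869 in the Adamts18-/- glands of mice 1, 2 and 3. The ratio was 0.436 ± 0.0469 and 0.869 ± 0.0672 (SD, n = 3 each), 2.00-fold higher, and the groups did not overlap. Of the other 6 members this held for Egr2 and S100b, and of all genes set against Prx for 1.78% in the same direction. No test is given, since the ratio was chosen on these values. Other denominators repeat the same Egr2 values, and those among the members varied together, so the next counts are not independent of the Prx ratio. A share over all genes was taken for Prx only. With each of the 6 other members as the denominator in turn, the groups did not overlap for 5 and overlapped for Mag. Over 17 listed genes of compact and uncompacted myelin, with Mbp, Pmp22, Prx, Mag and Cldn19 among them, 13 gave groups without overlap. The exceptions were Mag, Cnp, Nfasc and Sirt2.

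Egr2 is also an immediate early gene, induced within a short time of a stimulus in many cell types. Of 13 other immediate early genes, 6 were called higher in Adamts18-/- glands and 0 lower (edgeR, beside 1.17% of all genes called higher and 1.84% called lower): Fos (log2 fold change 1.04), Egr3 (0.73), Egr1 (0.60), Zfp36 (0.47), Junb (0.39) and Ier2 (0.35). For these 6 the unadjusted p ran from 0.00263 (Junb) to 0.0254 (Ier2), with an adjusted p of 0.987 for each (edgeR). Egr3 and Egr1 belong to the EGR family with Egr2, and Fos and Junb to the AP-1 family. Egr1, the most abundant, was at 270.2, 234.4 and 59.0 CPM in WT glands and at 463.6, 396.0 and 70.5 CPM in Adamts18-/- glands. The list summed to 1743, 1096 and 625 CPM in WT glands and to 2915, 2018 and 611 CPM in Adamts18-/- glands, so that it was higher in the Adamts18-/- gland in mice 1 and 2 and nearly level in mouse 3, where the difference in Egr2 was also smallest. Within mouse 3 the 6 called genes were higher in the Adamts18-/- gland, by 0.17 (Ier2) to 1.05 (Egr3) on the log2 scale. The other listed genes were lower there, down to -1.01 (Fosb). Egr3 differed most in this mouse. Macrophages, which can express Egr2, differed less, with 9 genes (Lyz2 the most abundant, 642 to 1407 CPM) summing to 3030, 1823 and 2697 CPM and to 3163, 2096 and 2607 CPM. The 10 skeletal muscle genes, at 339, 937 and 2976 CPM in WT glands and at 11534, 11483 and 2003 CPM in Adamts18-/- glands, were also higher in the Adamts18-/- gland in mice 1 and 2 and not in mouse 3. The part of any of these lists in the Egr2 result was not tested.

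**Figure D3:**
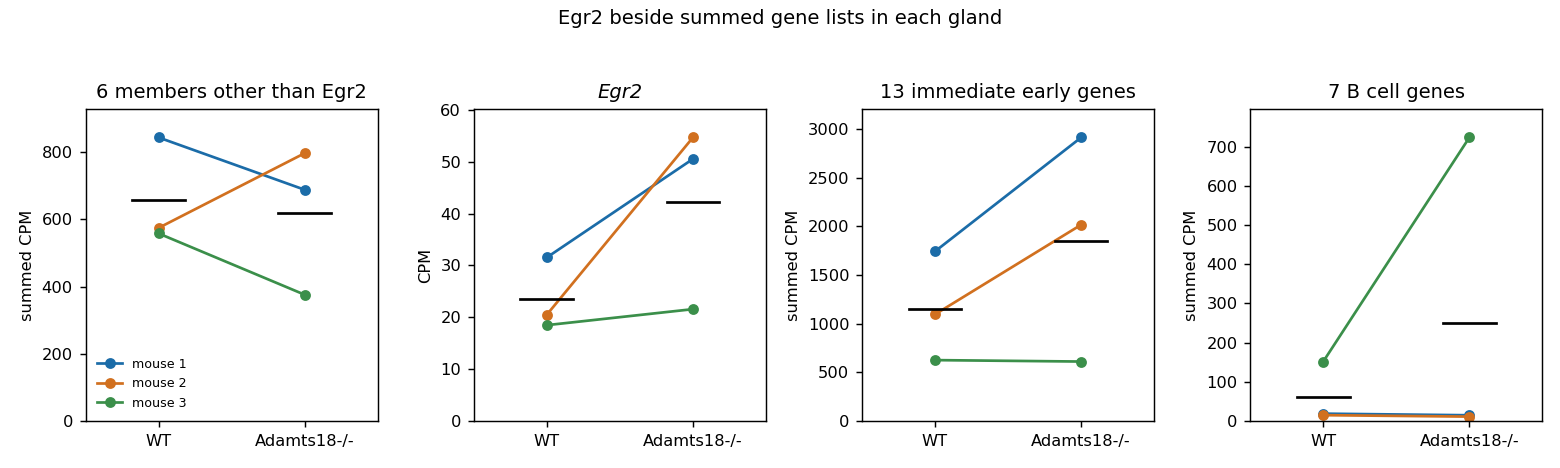
Summed CPM of the 6 members other than Egr2, CPM of Egr2, and summed CPM of 13 immediate early genes and of 7 B cell genes (vertical axes from 0) in each gland, joined by mouse, with black bars for group means (n = 3). Egr2 and the immediate early genes rise in mice 1 and 2 and stay low in mouse 3, where Egr2 goes from 18.5 to 21.6 CPM, and the B cell genes are high in mouse 3.

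The other genes of Schwann cells and myelin were read from 6 lists of 49 genes that include the members, of which 48 were tested. Pou3f2 had 1 to 3 reads and was not tested. Beyond Egr2, 1 of the 48 was called, beside 1.84% of all genes called lower. It was Artn, the ligand artemin of the GDNF family, which was lower in Adamts18-/- glands (log2 fold change -0.96, SE 0.34, unadjusted p = 0.0408 and adjusted p = 0.987, edgeR). Artn was at 0.803, 1.04 and 0.675 CPM in WT glands and at 0.707, 0.413 and 0.244 CPM in Adamts18-/- glands. Without mouse 3, without the mouse as a block and with scaling to pan-epithelial genes, 0 listed genes were called lower, Artn included. Of the 48, 35 had a log2 fold change below 0, with a median of -0.15 against 0.00065 over all genes. The signs of the 6 members, lower, higher and lower in mice 1, 2 and 3, were shown by 29 (15.4% of all genes). They are not particular to these lists, since 8 of 10 adipocyte genes and 4 of 10 endothelial genes showed them too. The 29 include those 6 members, whose own values define the signs. Without the members, 29 of 41 genes were below 0 and 23 of 41 had these signs. Without mouse 2, 10 of the listed genes were called lower, beside 1.22% of all genes, and without mouse 1, 5 were, beside 2.73% of all genes. Genes with these signs were higher in mouse 2, so leaving it out keeps the mice in which they were lower. The 10 include the members Mbp, Prx and Cldn19, named above.

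The 3 compact myelin genes of the lists, the members Mbp and Pmp22 and also Pmp2, all had these signs and 0 were called. Pmp2, a lipid-binding myelin protein, was at 1.563, 0.897 and 1.599 CPM in WT glands and at 1.38, 1.49 and 0.472 CPM in Adamts18-/- glands (log2 fold change -0.37, SE 0.52, unadjusted p = 0.511, edgeR). Among 14 genes of uncompacted membrane and junctions 13 had these signs, the members Prx, Mag and Cldn19 among them, and 0 were called. The most abundant, the deacetylase Sirt2, which is widely expressed, stayed between 74.1 and 98.9 CPM. The remaining gene of that list was Cnp, an enzyme of uncompacted myelin that is also made in other cells. The 3 genes for myelin lipids, led by Ugt8a (2.54 to 10.7 CPM), an enzyme of galactosylceramide synthesis, summed to 5.09 CPM in the Adamts18-/- gland of mouse 3 and to 11.8 to 18.6 CPM elsewhere, and 0 were called.

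Of 9 transcription factors tested, Egr2 alone was called. Sox10, which acts with Egr2 in Schwann cells and is also expressed in mammary epithelium, was at 65.5, 95.5 and 76.3 CPM in WT glands and at 70.8, 54.9 and 51.9 CPM in Adamts18-/- glands, a log2 fold change of -0.41 (SE 0.19, unadjusted p = 0.0847, edgeR). It did not follow the signs of the myelin genes. All 24 pan-epithelial genes had a log2 fold change below 0, with a median of -0.39 and 8 called lower, and they summed to 2095, 2768 and 2962 CPM in WT glands and to 2026, 1695 and 2043 CPM in Adamts18-/- glands. Like Sox10 they were lower mainly in mice 2 and 3, and their part in the Sox10 values was not tested. The most abundant factor, Zeb2, lay between 108 and 164 CPM with a log2 fold change of 0.083. Of 9 signals and receptors, Erbb3, the neuregulin receptor of Schwann cells that luminal epithelium also expresses, was the most abundant (75.0 to 153 CPM), and 1 was called, Artn. Of 10 genes of immature and nonmyelinating Schwann cells, 0 were called and 3, the member S100b among them, had the signs of the members. The sodium channel Scn7a led this list, between 131 and 264 CPM. Of 7 neuronal genes tested 0 were called, and they summed to 10.9 to 11.3 CPM in WT and 10.3 to 16.2 CPM in Adamts18-/- glands, with Uchl1 the most abundant (5.02 to 5.64 CPM).

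**Figure D4:**
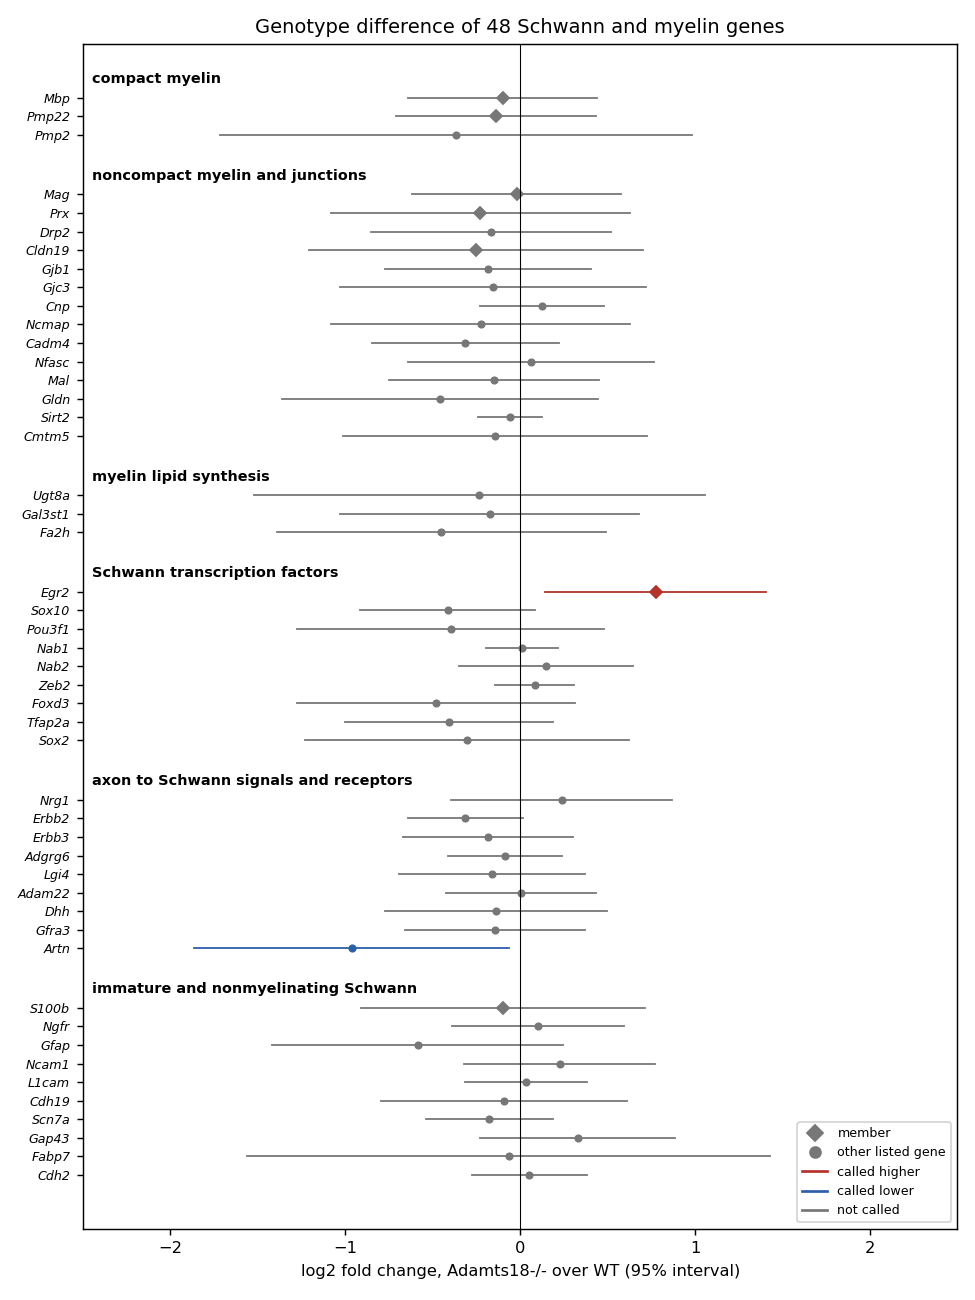
Log2 fold change (Adamts18-/- over WT, horizontal axis) with its 95% interval for the 48 tested Schwann and myelin genes, grouped by list, from edgeR with the mouse as a block, with diamonds for the members, red for a gene called higher and blue for a gene called lower. The called genes are Egr2 (0.77) and Artn (-0.96).

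The genes whose log2 CPM ran most closely with a member over the 6 libraries were sought among all tested genes, as a description of 6 points that share hosts and scaling. For Mbp they were Ssfa2 (r = 0.999), Lman2 (0.991) and Sele (0.990), and for Pmp22 Dusp15 (0.999), Car5b (0.999) and Acads (0.998). For Prx they were Mogat1 (0.997), Lrrc41 (0.992) and Wnt2b (0.991), and for Cldn19 Efr3b (0.995), Etfb (0.994) and Gfra1 (0.993). For S100b they were 6430548M08Rik (0.998), Cpt1c (0.995) and Kcnip4 (0.995). For Mag they were Gm17256 (0.984), Mrpl55 (0.972) and Avpi1 (0.952). For Egr2 they were Parp6 (0.993), Gm9781 (0.989) and Arih1 (0.982). Of these 21 genes 0 is in the Schwann and myelin lists, which hold only 48 of the 17345 tested genes. Naming 3 genes per member also cuts off near ties, such as S100b for Prx (r = 0.9910, against 0.9914 for Wnt2b).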

How the data were processed

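The table that the authors deposited holds raw counts of reads for each gene symbol, with a column for every gland and no scaling. The submitters' processing notes name bcl2fastq 2.18, TopHat2 2.0.11, featureCounts 1.6.2, edgeR and the build mm9, and reads were single-end of 85 bp. The annotation and the treatment of shared reads were not given in the sources used here. Columns were matched to glands by genotype and mouse number in the titles, and 0 columns belonged to other samples. The mouse numbers with the left and right side pair the glands, as does the design text. The glands of mice 1, 2 and 3 deviated together from their group means (r = 0.512, 0.505 and 0.639 across genes). Both libraries of mouse 3 stood apart, and deviations from a group mean sum to 0. The values therefore cannot show which glands of mice 1 and 2 pair.

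The test was edgeR's quasi-likelihood test (version 4.0.16 in R 4.3.3) after filterByExpr and TMM scaling, blocked on the mouse, with Benjamini-Hochberg adjustment over 17345 genes. Log2 CPM used a prior count of 2. Alternatives were DESeq2 1.42.0, limma-voom (limma 3.58.1), other scalings and filters, a fit without the block, and each mouse left out. Exon lengths came from GENCODE M21 (GRCm38), not from the build of the counts. Older symbols were matched for Ncmap, Adgrg6 and Adgre1. Named genes were the members, Adamts18, called genes and the most abundant gene of each list, and the 3 genes most alike to each member; Pmp2, Cd22, Cnp, Nfasc, Pou3f2, Sox10, the immediate early genes and the absent markers were named after their values were seen. Some listed genes are not reported here and were left out of the lists. Members and lists were chosen with earlier results of these data known. The spread between 3 hosts sets the precision.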

Additional observations from a re-analysis of the deposited data

How the results depend on the processing

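With each mouse left out in turn, the fits rest on 2 pairs of glands. The log2 fold change then ran from -0.39 to 0.061 for Mbp, -0.42 to 0.11 for Pmp22, -0.69 to 0.11 for Prx, -0.27 to 0.21 for Mag, -0.74 to 0.15 for Cldn19, -0.51 to 0.21 for S100b and 0.45 to 1.05 for Egr2. Members called lower and higher ran from 0 to 3 and from 0 to 1, listed genes from 0 to 10 and from 0 to 1, and all genes from 214 to 481 and from 182 to 581.

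Without the mouse as a block Egr2 was at 0.85, and 0 members were called higher, 0 listed genes lower, 0 listed genes higher and 125 of all genes lower. By adjusted p under 0.05 (edgeR) 0 genes passed in either direction, with 670 at an unadjusted p under 0.05, while DESeq2 passed 71 and edgeR without mouse 3 passed 268. With scaling to 24 pan-epithelial genes, where the median of all genes shifted by 0.43, the values were 0.33 (Mbp), 0.29 (Pmp22), 0.19 (Prx), 0.41 (Mag), 0.16 (Cldn19) and 0.32 (S100b), all below that shift, while 0 listed genes were called lower and 3 higher, and 35 of all genes lower and 2208 higher. DESeq2, limma-voom and no filter called 340, 345 and 352 of all genes higher. The causes were not tested. The other results kept direction and call under RLE, upper quartile and library size scaling and with at least 10 counts in every sample.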
